A study of Mus musculus with 23 samples.

Results

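Mouse retinal organoids that had received a fatty acid were compared with organoids that had received its carrier alone, at differentiation day 26. The comparison used 6 of the 23 RNA sequencing libraries of the series. They were 2 with linoleic acid (LA) and 2 with docosahexaenoic acid (DHA), pooled as 4 fatty acid libraries, and 2 with bovine serum albumin (BSA). All 6 came from a single induced pluripotent stem cell clone with wild-type genotype, reprogrammed from embryonic Nrl-GFP mouse fibroblasts with doxycycline-inducible Oct3/4, Sox2, Klf4 and c-Myc lentiviruses. In the Nrl-GFP line, cells that activate the rod gene Nrl also make green fluorescent protein. Both acids were bound to BSA and supplied from day 10 at 26 µM (the micro sign is garbled in the labels and was read as such). The labels give no start day for BSA alone. All 3 groups shared a medium with N2 supplement, taurine, 9-cis retinal and insulin-like growth factor 1, and moved from low to atmospheric oxygen at day 10. FGF1, which the study used at 200 ng/ml, was supplied only from day 26 and is named in none of these 3 groups. The neural retina was dissected from pooled organoids, so a library averages over organoids. The labels call the libraries biological replicates without naming separate cultures, so each p-value measures only a spread between libraries. That spread was estimated from 12 libraries, these 6 and 6 of day 32 with FGF1.

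LA is an omega-6 fatty acid from which cells can make arachidonic acid, and DHA is the long omega-3 acid that fills the outer segment membranes of photoreceptors. Free polyunsaturated acids act on transcription through several known routes. They bind the PPAR nuclear receptors, which raise genes of fatty acid oxidation and lipid storage, and they hold back SREBP1 and LXR, which drive fatty acid synthesis and desaturation. SREBP2 responds to cellular cholesterol and drives cholesterol synthesis and uptake. The question of the comparison was which genes moved the same way with both acids.

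The 6 libraries held 16770724 to 18097433 counts each, and 25390 to 26313 genes had at least 1 count. Mitochondrial transcripts took 3.756% to 4.245% of the counts. Both DHA libraries (3.879% and 4.245%) lay above both BSA libraries (3.765% and 3.762%), while LA (4.026% and 3.756%) overlapped BSA. Markers of neural retina were present in all 6. Crx, the photoreceptor homeobox gene, stood at 1023 to 1324 CPM (counts scaled to a common library size by TMM), Nr2e3, the gene of a rod nuclear receptor, at 577 to 977, and Rax, an eye field and progenitor gene, at 89.0 to 121. The opsin gene Opn1mw did not pass the filter on low counts, and Rpe65, the retinoid isomerase gene of pigment epithelium, had no count in any of the 6. The microglial complement genes C1qb and C1qc also had none, while C1qa of the same complex was at 1.00 to 2.72 CPM.

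No gene passed the test for either fatty acid against BSA. With the edgeR quasi-likelihood (QL) test and Benjamini-Hochberg adjustment, 0 of 20111 genes (0%) were called at an adjusted p under 0.05, and 249 (1.24%) had an unadjusted p under 0.05. Each acid alone gave the same count. It was 0 of 20111 (0%) for LA against BSA, with 356 (1.77%) at an unadjusted p under 0.05, and 0 (0%) for DHA against BSA, with 252 (1.25%). Those comparisons share their 2 BSA libraries, so a gene that was off in BSA appears in both. Evenly spread p-values would put a share of 0.05 of the genes at an unadjusted p under 0.05. The shares seen are lower, so the test was conservative here, and 0 calls do not show that no gene differed. The reason for the low shares was not tested. DESeq2 called 0 genes in each of the 3 comparisons, with 172, 292 and 171 at an unadjusted p under 0.05, and limma voom called 0 in each, with 235, 321 and 241. Without the filter on low counts edgeR called 69 genes for either acid, 34 of them higher, and 128 for LA and 59 for DHA. In that fit of 35601 genes the prior degrees of freedom, the weight given to the shared spread, were infinite, against 5.66 with the filter. Of those 69 genes, 47 were not above or below BSA in all 4 libraries.

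Single libraries of one group lay farther apart than the means of the groups. Across genes the median absolute log2 difference was 0.209 between the 2 BSA libraries, 0.327 between the 2 LA libraries and 0.308 between the 2 DHA libraries. It was 0.103 between the mean of the 4 fatty acid libraries and the mean of the 2 BSA libraries, a measure that averaging by itself makes smaller than a difference between single libraries. Replicate libraries were not copies of each other, with a chi-square per degree of freedom of 12.7 or more in each group. The 95% intervals reached a median of 0.519 log2 units to each side, and for 13999 genes (69.6%) the whole interval lay within 1 log2 unit of no difference. For these genes a change of 2-fold or more was outside the interval, and for the others it was not.

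A gene was counted as moving the same way when all 4 fatty acid libraries lay on one side of both BSA libraries. This held for 589 genes on the higher side (2.93% of those tested) and 585 on the lower side (2.91%), in all 1174 (5.84%). A gene can be ordered in 15 ways when 4 libraries are set against 2, and the smallest exact two-sided permutation p is 0.133, so the order alone cannot pass a threshold of 0.05. If all 15 ways were equally likely, a share of 0.133 of the genes would fall in the 2 sets together. The 5.84% seen is below that share. Deviations of libraries with the same replicate number correlated at 0.366 between BSA and LA, so the 15 ways need not be equally likely. The share thus cannot show whether the count is an excess, which was not tested. The genes in both sets were of low abundance. Their median expression was 1.21 log2 CPM for the higher set and 1.27 for the lower set, against 3.85 over all genes tested. Protein-coding genes made up 73.3% and 66.2% of them, against 78.8% of all. The median size of the difference was 0.462 and 0.452 log2 units, and 139 and 73 genes were past 1 log2 unit. The counts grew with each library left out, since fewer libraries then had to fall in order. There were 2691 higher and 2593 lower genes without BSA replicate 1, 2322 and 2289 without BSA replicate 2, 1050 and 999 without LA replicate 1, and 1575 and 1242 without LA replicate 2. Without DHA replicate 1 they were 1341 and 1292, and without DHA replicate 2 they were 1102 and 1045.

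The genes described next are the 12 on each side with the smallest unadjusted p among those that kept this order, so these differences describe how they were picked and support nothing. Log2 differences are the mean of the LA and DHA groups minus BSA, with the standard error (SE) from the fit, and the adjusted p was 1.00 for all 24. On the higher side the differences ran from 0.40 to 1.44. Papss2 (chromosome 19, 32620005 to 32667187, GRCm38), which encodes an enzyme that makes the activated sulfate used in sulfation, had the smallest p. It stood at 1.39 and 0.908 CPM in BSA, 3.90 and 1.62 in LA and 3.01 and 2.84 in DHA, a log2 difference of 1.3 (SE 0.407). The nearest values were BSA replicate 1 and LA replicate 2. Mlc1 (chromosome 15, 88955884 to 88979007), a gene of glial membranes, had the widest difference of the 12. It was at 1.94 and 0.738 CPM in BSA, 5.94 and 4.05 in LA and 2.65 and 2.55 in DHA (1.44, SE 0.485). Its LA libraries were thus the higher pair, and the difference was 2.27 without BSA replicate 1 and 0.89 without BSA replicate 2.

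Dmxl1, which encodes a partner of the vacuolar proton pump, was the most abundant of the 12. It stood at 119 and 62.1 CPM in BSA, 242 and 131 in LA and 303 and 174 in DHA (1.22, SE 0.412). LA replicate 2 was only just above BSA replicate 1. Smc6, a subunit of a chromosome maintenance complex, was tighter, at 58.7 and 55.9 CPM in BSA, 85.8 and 74.4 in LA and 74.8 and 69.5 in DHA (0.41, SE 0.144). Pdgfa and Bmp4 encode secreted growth factors, and Bmp4 was at 1.45 and 1.59 CPM in BSA, 2.70 and 3.13 in LA and 2.59 and 2.84 in DHA (0.89, SE 0.352). All 4 fatty acid values of Bmp4 lay between 2.59 and 3.13 CPM. Pdgfa, at 5.44 and 4.31 CPM in BSA, 8.70 and 6.48 in LA and 7.02 and 10.5 in DHA, was more scattered. Map3k5, a stress-activated kinase gene, and Lrrk2, a kinase gene linked to Parkinson disease, stood farther above BSA with LA (0.96 and 1.26 log2 units) than with DHA (0.31 and 0.65). Their differences of DHA minus LA were −0.64 (SE 0.251) and −0.62 (SE 0.404), with an adjusted p of 1.00 for both. The other members were Gxylt2 (0.92), a xylosyltransferase gene, Tceanc (0.40), Pcdh11x (0.65), a protocadherin gene, and Car10 (0.57), a gene related to the carbonic anhydrases. Without BSA replicate 2 the difference was 0.55 for Gxylt2 and 0.42 for Map3k5, and without BSA replicate 1 it was 1.39 for Gxylt2 and 0.23 for Tceanc.

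**Figure D1:**
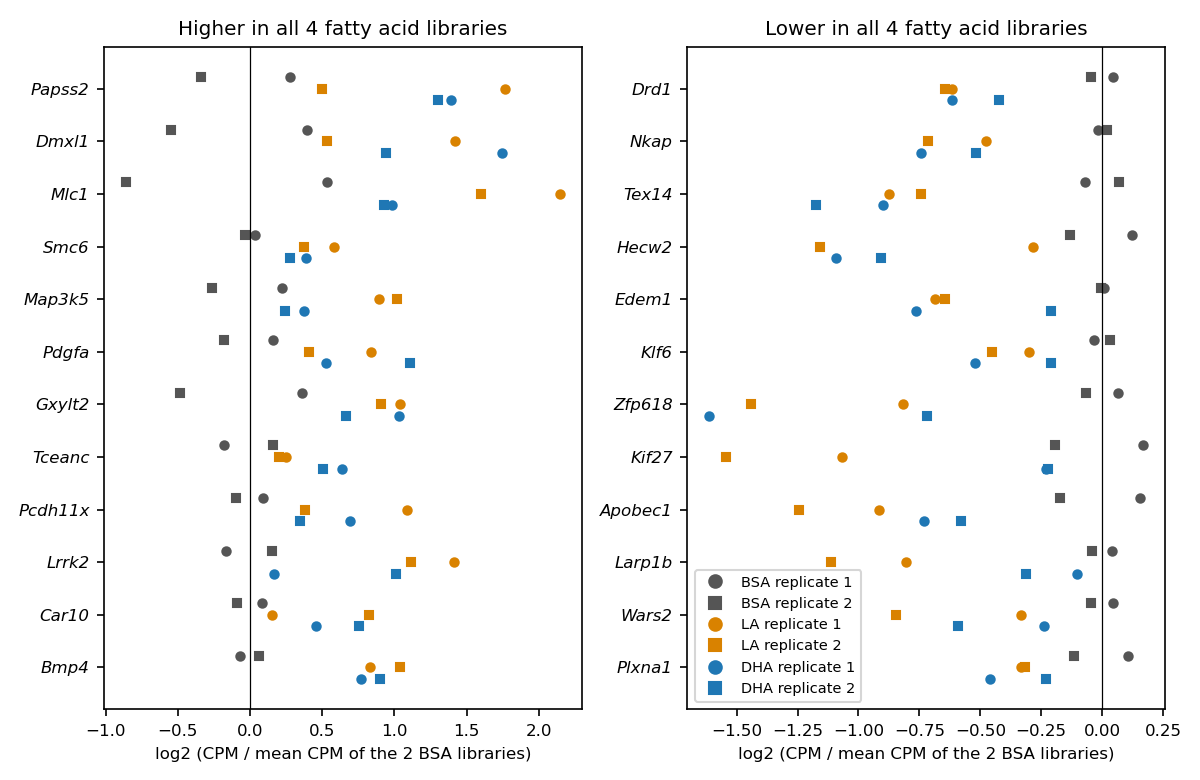
Expression of the 24 genes with the smallest p among those above (left) or below (right) BSA in all 4 fatty acid libraries, as log2 of CPM over the mean CPM of the 2 BSA libraries. Each point is 1 library, and the vertical line marks the BSA mean; in Papss2, Dmxl1 and Mlc1 the 2 BSA libraries themselves lie apart, while Drd1, Nkap and Klf6 have BSA libraries close together.

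On the lower side the 12 differences ran from −1.10 to −0.33. Drd1 (chromosome 13, 54051183 to 54055705), the dopamine D1 receptor gene, had the smallest p of all 24. It stood at 43.2 and 40.5 CPM in BSA, 27.3 and 26.8 in LA and 27.3 and 31.2 in DHA (−0.57, SE 0.134). Both groups were tight and well apart, and the value with LA (−0.63) was near that with DHA (−0.52). Nkap (X chromosome, 37126795 to 37150746), which encodes a nuclear protein of transcription and splicing, was at 30.1 and 30.9 CPM in BSA, 21.9 and 18.6 in LA and 18.2 and 21.3 in DHA (−0.61, SE 0.170). Klf6, a zinc finger transcription factor gene, was at 53.0 and 55.4 CPM in BSA, 44.0 and 39.6 in LA and 37.8 and 46.9 in DHA (−0.37, SE 0.129). Edem1, which encodes a protein that clears misfolded glycoproteins from the endoplasmic reticulum, was at 21.5 and 21.3 in BSA, 13.3 and 13.7 in LA and 12.6 and 18.5 in DHA (−0.57, SE 0.198). DHA replicate 2 was the nearest to BSA for Drd1, Klf6 and Edem1. Zfp618, a zinc finger gene, had the widest difference, at 98.2 and 89.6 CPM in BSA, 53.3 and 34.6 in LA and 30.7 and 57.1 in DHA (−1.10, SE 0.408).

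Plxna1, a semaphorin receptor gene, was the most abundant gene of the lower 12, at 213 and 183 CPM in BSA, 157 and 159 in LA and 144 and 169 in DHA (−0.33, SE 0.132). Wars2, the mitochondrial tryptophanyl-tRNA synthetase gene, differed by −0.49 and Hecw2, a ubiquitin ligase gene, by −0.82. Tex14, known from germ cell bridges, differed by −0.92 and Apobec1, a cytidine deaminase gene, by −0.86, both with BSA levels under 5 CPM. Kif27, a kinesin gene, was at 7.08 and 5.51 CPM in BSA, 3.00 and 2.16 in LA and 5.37 and 5.39 in DHA. Its LA value of −1.29 and DHA value of −0.23 were 1.06 apart (SE 0.351), and Larp1b, an RNA-binding protein gene, had −0.95 and −0.20, which were 0.75 apart (SE 0.264), neither past the test of DHA against LA. In both genes the DHA libraries lay just below BSA and the LA libraries far below. Of all 24 genes, Dmxl1, Mlc1 and Zfp618 passed the threshold when low counts were not filtered, with adjusted p of 2.83e-08, 0.000767 and 4.59e-07 by edgeR, and none passed by DESeq2 or limma voom.

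Genes known to respond to fatty acids were tested singly, and the direction of a list as a whole was not tested. None of the 26 PPAR target and oxidation genes was called for either acid alone or for their mean. On this list 19 members were above BSA on average and 7 below, with a median of 0.0939 log2 units against 0.0109 over all genes, and −0.0361 without LA replicate 1. Over all 20111 genes tested, 10679 were above and 9426 below, the counts to set beside those of each list. Its summed level was 839.7 and 853.3 CPM in BSA, 869 to 964.1 in LA and 818.4 to 823 in DHA. No member was higher in all 4 fatty acid libraries, and Ppard, the gene of a PPAR receptor, was lower in all 4 by −0.13. Angptl4, a secreted lipase inhibitor and PPAR target, was at 0.847 and 0.454 CPM in BSA, 1.32 and 0.648 in LA and 0.590 and 0.464 in DHA, and the groups overlapped (0.15, 95% interval −0.95 to 1.25). Pdk4, which encodes a kinase that spares glucose, was also scarce, at 0.242 and 0.227 CPM in BSA, 0.540 and 0.594 in LA and 0.413 and 0.174 in DHA. Plin2, the lipid droplet coat gene, was at 34.8 and 36.9 CPM in BSA, 47.3 and 28.1 in LA and 41.4 and 44.4 in DHA (0.17, interval −0.39 to 0.72). Ppargc1a, a coactivator gene of mitochondrial biogenesis, had the smallest p of the list (0.31, interval −0.06 to 0.69).

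Cpt1a, which encodes the gate enzyme of mitochondrial fatty acid import, was the PPAR target that split by acid. It was at 79.4 and 80.4 CPM in BSA, 93.9 and 101 in LA and 60.4 and 51.9 in DHA. Both LA libraries lay above BSA and both DHA libraries below it, so the values of the 2 groups offset each other in their mean (−0.11, interval −0.57 to 0.35). The gene did not pass the test of DHA against LA after adjustment (−0.79, SE 0.246, adjusted p = 1.00).

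**Figure D2:**
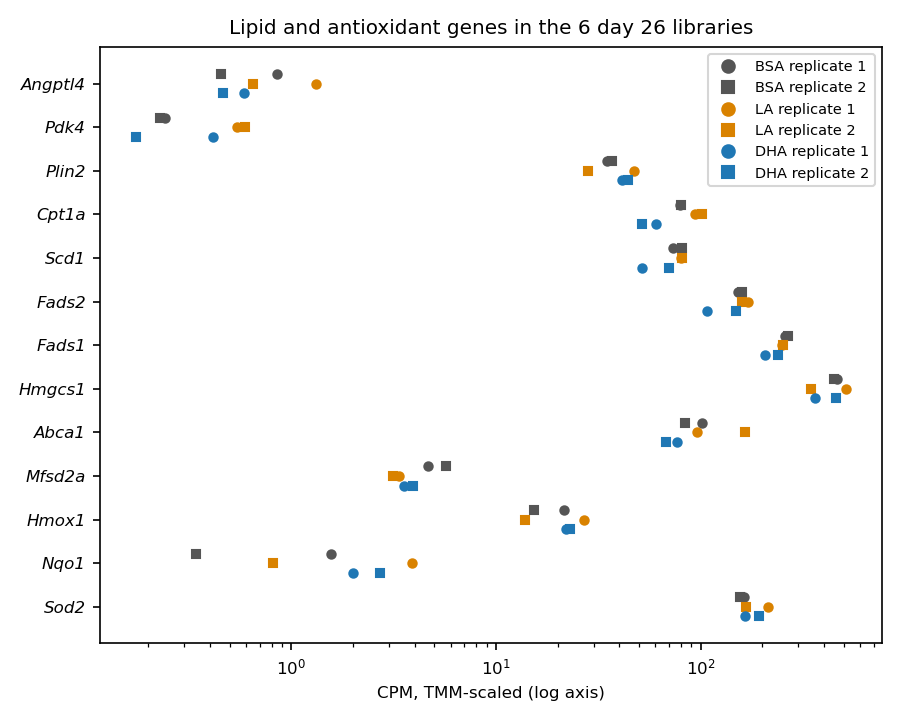
Levels of 13 lipid and antioxidant genes in the 6 day 26 libraries, in TMM-scaled CPM on a log axis, with 1 point per library. Cpt1a has LA above and DHA below BSA, Mfsd2a and Fads1 have all 4 fatty acid libraries below BSA, and Sod2 has all 4 above.

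Among the 18 genes of fatty acid synthesis, desaturation and elongation, none was called, 7 were above and 11 below BSA, and the median was −0.0349. By acid the median was 0.0762 for LA and −0.217 for DHA. The summed level was 4366 and 4611 CPM in BSA, 4741 and 4866 in LA and 3450 and 4108 in DHA, so the 3 groups did not overlap. Acaca, Elovl2 and Me1 had LA above and DHA below both BSA libraries, 3 of the 18 against 1.51% of all genes tested. Fads1, the delta-5 desaturase gene of arachidonic acid and DHA synthesis, was the member lower in all 4 libraries. It was at 257 and 268 CPM in BSA, 250 and 252 in LA and 206 and 240 in DHA (−0.15, interval −0.42 to 0.12). Its partner Fads2, the delta-6 desaturase gene, was at 152 and 159 CPM in BSA, 171 and 159 in LA and 108 and 149 in DHA (−0.10). Scd1, a stearoyl-CoA desaturase gene, was at 73.1 and 80.7 CPM in BSA, 80.4 and 80.9 in LA and 51.6 and 69.9 in DHA (−0.14). In Fads2 and Scd1 both DHA libraries lay below BSA, while LA overlapped it or lay at its upper edge.

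The 24 genes of cholesterol synthesis and SREBP2 control had a median of −0.0285, with 8 above and 16 below BSA and none higher or lower in all 4 libraries. Hmgcs1, which encodes an early enzyme of the route, was at 465 and 448 CPM in BSA, 516 and 348 in LA and 363 and 460 in DHA, so the replicates lay close in BSA and apart in LA and DHA. Msmo1, which encodes a later enzyme, was at 119 and 137 CPM in BSA, 156 and 124 in LA and 141 in both DHA libraries (0.13, interval −0.16 to 0.42). LXR target genes numbered 11, with a median of 0.048 that stood at −0.0333 without LA replicate 2. Abca1, the sterol efflux pump gene, was at 101 and 84.2 CPM in BSA, 95.7 and 164 in LA and 76.6 and 68.0 in DHA, and only LA replicate 2 stood high.

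Of 20 genes of fatty acid uptake, activation and phospholipid incorporation, none was called and the median was 0.0153, which became 0.0799 without BSA replicate 1. Mfsd2a, which encodes a transporter that carries DHA into brain and eye as lysophospholipid, was lower in all 4 libraries. It was at 4.66 and 5.68 CPM in BSA, 3.36 and 3.13 in LA and 3.54 and 3.94 in DHA (−0.57, interval −1.28 to 0.14). Both acids had like values, −0.67 for LA and −0.47 for DHA. Cd36, a fatty acid scavenger receptor gene, had no count in BSA and 0.059 to 0.216 CPM in the 4 fatty acid libraries, too few counts for a fold change. The 18 tested genes of lipid droplets and triglyceride turnover split evenly, 9 above and 9 below. Mgll, the monoglyceride lipase gene, had the smallest p of that list (0.47, interval −0.02 to 0.96), at 26.0 and 15.7 CPM in BSA, 34.4 and 25.0 in LA and 27.2 and 28.7 in DHA.

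Antioxidant genes leaned upward without any of them passing the test. Of the 20, 17 were above BSA and 3 below, against 10679 above of all 20111 genes tested, with a median of 0.111. The sum of the list was 2726 and 2266 CPM in BSA, 3151 and 2122 in LA and 2401 and 3181 in DHA, so the groups overlapped, and the median stood at −0.0659 without LA replicate 1. Sod2, the mitochondrial superoxide dismutase gene, was higher in all 4 libraries, at 162 and 156 CPM in BSA, 213 and 166 in LA and 165 and 193 in DHA (0.21, interval −0.09 to 0.51). Hmox1, the heme oxygenase gene, was at 21.6 and 15.4 CPM in BSA, 27.0 and 13.8 in LA and 21.9 and 23.1 in DHA (0.21, interval −0.42 to 0.83). Nqo1, a quinone reductase gene, was at 1.57 and 0.341 CPM in BSA, 3.90 and 0.810 in LA and 2.00 and 2.72 in DHA (1.3, interval −0.08 to 2.69). The value for Nqo1 was 0.55 without LA replicate 1, 0.58 without BSA replicate 2 and 2.75 without BSA replicate 1. For Hmox1 and Nqo1 the replicate 1 libraries of BSA and LA were above their replicate 2 libraries.

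Stress and inflammation lists showed no called gene. Among 17 genes of the unfolded protein and amino acid stress response the median was 0.0616, and the chaperone gene Hspa5 was at 397 and 309 CPM in BSA, 456 and 296 in LA and 442 and 425 in DHA. Among 22 genes of hypoxia and glycolysis 19 were above BSA, against 10679 of all 20111 genes tested. Their median was 0.06, and −0.0519 without LA replicate 1. Eicosanoid and docosanoid enzymes, which turn these acids into signalling lipids, numbered 18 tested of 21, with a median of −0.00614. The prostaglandin synthase gene Ptgs2 was higher in all 4 libraries, at 0.665 and 0.681 CPM in BSA, 0.900 and 0.918 in LA and 1.00 and 1.04 in DHA, and Hpgds, another prostaglandin synthase gene, was lower in all 4 (−0.59). Icam1, a leukocyte adhesion gene, had the smallest p of all list members. It was at 1.09 and 0.568 CPM in BSA, 1.56 and 1.40 in LA and 2.54 and 1.91 in DHA (1.13, interval 0.35 to 1.91), and its DHA libraries were the highest. The difference was 0.73 without BSA replicate 2 and 1.66 without BSA replicate 1.

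Interferon response genes split in direction. Of 17, 4 were higher in all 4 fatty acid libraries (2.93% over all genes) and 2 were lower in all 4 (2.91% over all genes), and the median was 0.00614, or 0.246 without BSA replicate 1. Rsad2, an antiviral enzyme gene, was at 0.181 and 0 CPM in BSA, 0.36 and 0.702 in LA and 0.707 and 0.232 in DHA (2.41, interval 0.48 to 4.34). That value rests on few counts and was 1.43 without BSA replicate 2 and 6.16 without BSA replicate 1, which leaves a BSA library at 0, so that it depends on the prior count. Ifih1, a sensor of double-stranded RNA, was at 0.605 and 0.624 CPM in BSA, 0.900 and 0.972 in LA and 1.00 and 1.04 in DHA (0.66, SE 0.371). Ddx58, the gene of the related RNA sensor RIG-I, went the other way, at 6.77 and 7.27 CPM in BSA, 3.48 and 3.46 in LA and 6.90 and 3.88 in DHA (−0.70, interval −1.38 to −0.02). The sum of the list was 108 to 129 CPM across the 6 libraries, and the groups overlapped.

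The medians of the photoreceptor lists had opposite signs with the 2 acids, though no member was called and not every member split. In bulk tissue, fewer cells of a type and less RNA per cell cannot be told apart. For the 18 rod genes the median was 0.393 with LA and −0.192 with DHA, and 0.0984 for their mean. That mean was 0.287 without BSA replicate 1 and −0.0231 without BSA replicate 2. Averaged over the acids, 17 of the 18 were above BSA and 1 below, against 10679 above of all 20111 genes tested. The summed rod level was 5691 and 4629 CPM in BSA, 7163 and 6115 in LA and 4478 and 4714 in DHA, so that both LA libraries lay above BSA and the DHA libraries overlapped it. LA lay above and DHA below both BSA libraries for 4 of the 18, against 1.51% of all genes tested. Nrl, the rod fate factor gene, was at 690 and 627 CPM in BSA, 909 and 705 in LA and 537 and 551 in DHA, and its averaged difference was 0.01 (interval −0.35 to 0.36). Cabp4, a synaptic calcium-binding protein gene, was the rod gene higher in all 4 libraries, at 0.544 and 0.624 CPM in BSA, 1.26 and 2.16 in LA and 0.707 and 0.985 in DHA (1.03, SE 0.524).

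The medians of cone genes and of the genes common to both photoreceptor types had the same signs. The 13 tested cone genes had medians of 0.336 with LA and −0.16 with DHA, and the 26 shared genes 0.25 and −0.176. LA lay above and DHA below both BSA libraries for 0 of the 13 and 4 of the 26, against 1.51% of all genes tested. The cone phosphodiesterase gene Pde6h was above BSA on average with both acids (1.23 and 0.53), and the cone arrestin gene Arr3 was below with both (−0.12 and −0.48). None of these genes was called for either acid or for DHA against LA. Opn1sw, the short-wavelength cone opsin gene, ranged from 43.6 to 329 CPM. It was at 66.5 and 126 CPM in BSA, 49.7 and 329 in LA and 43.6 and 120 in DHA, and replicate 2 was the higher library in each group. Crx was at 1133 and 1194 CPM in BSA, 1324 in both LA libraries and 1204 and 1023 in DHA (0.06, interval −0.23 to 0.35). Rcvrn, the recoverin gene, was at 14.2 and 13.1 CPM in BSA, 22.2 and 13.3 in LA and 9.32 and 9.73 in DHA, with an averaged difference of −0.07 (interval −0.71 to 0.57).

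**Figure D3:**
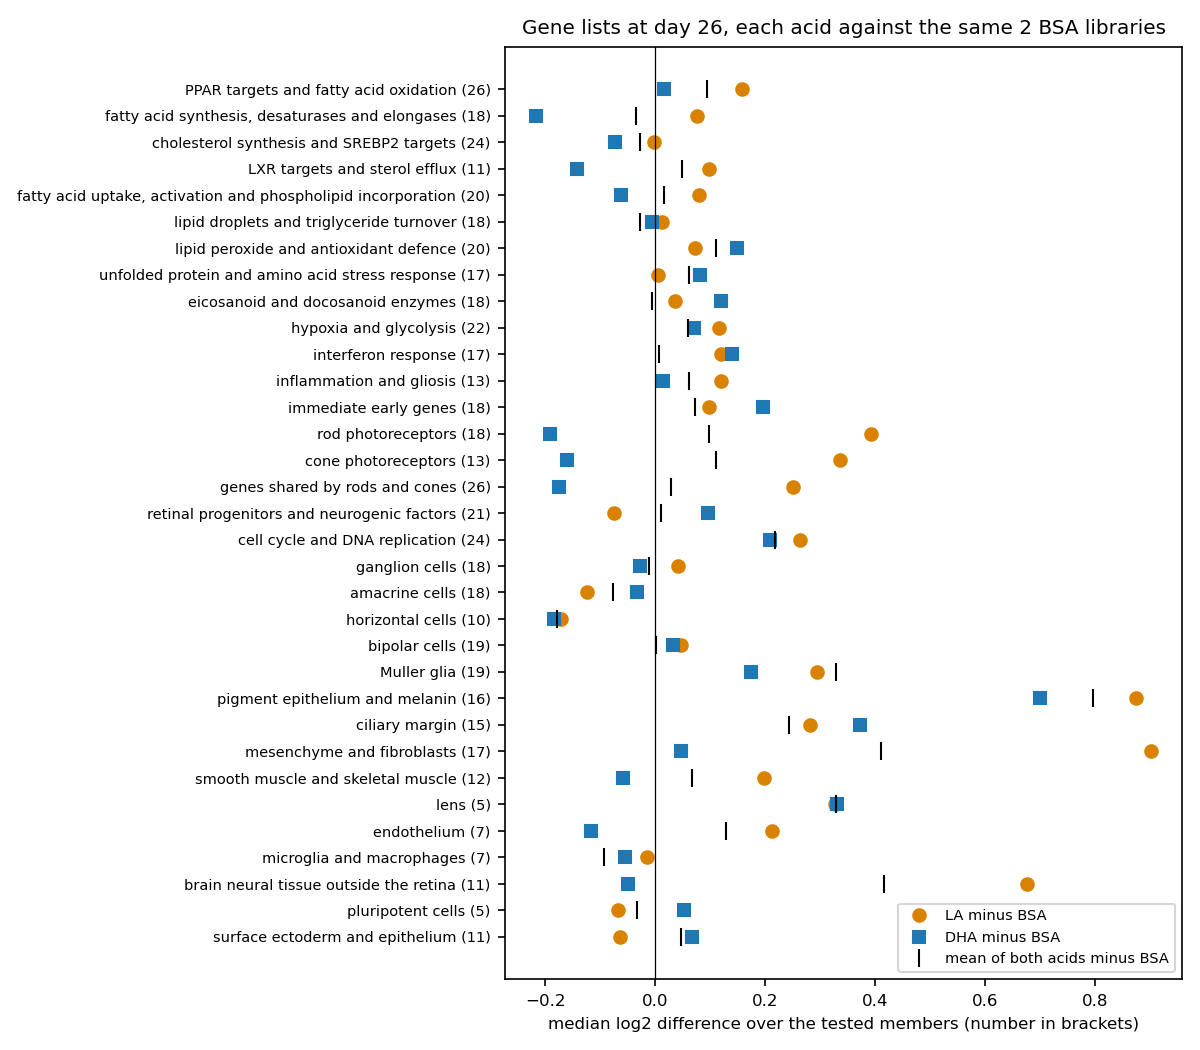
Median log2 difference from BSA over the tested members of 33 gene lists, for LA (circles), DHA (squares) and their mean (bars), with the number of tested members in brackets. The 2 acids share the same 2 BSA libraries; rod, cone and shared photoreceptor lists have LA above and DHA below 0, while pigment and cell cycle lists have both above.

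The cell cycle list had the most uniform sign of the lists of 20 or more genes. Among smaller lists, 17 of 18 rod genes and 5 of 5 tested lens genes were above BSA on average. Of 24 genes of cell cycle and DNA replication, 22 were above BSA on average, against 10679 of all 20111 genes tested. None of the 24 was called, and the median was 0.218, with 0.264 for LA and 0.209 for DHA. The minichromosome maintenance genes Mcm2, Mcm3 and Mcm5, which encode parts of the replicative helicase, and the cyclin gene Ccne2 were higher in all 4 libraries, 4 of the 24 against 2.93% of all genes. Mcm2 was at 18.4 and 19.6 CPM in BSA, 30.5 and 22.9 in LA and 21.2 and 23.0 in DHA (0.35, interval −0.11 to 0.82). Ccne2 was at 10.6 and 12.7 CPM in BSA, 15.8 and 13.0 in LA and 13.0 and 15.8 in DHA (0.31, interval −0.09 to 0.71). Mki67, a marker of cycling cells, overlapped between groups, at 73.4 and 127 CPM in BSA, 139 and 110 in LA and 126 and 80.6 in DHA. The summed level of the list overlapped as well, at 579.1 and 732 CPM in BSA, 922 and 640.2 in LA and 787.5 and 696.6 in DHA. The median was 0.0512 without LA replicate 1 and 0.387 without LA replicate 2, and 0.121 without BSA replicate 1 and 0.375 without BSA replicate 2.

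Of the progenitor and inner retinal lists, horizontal cell genes stood farthest from all genes, with the most negative median of the 33 lists. The 21 progenitor genes had a median of 0.011, which became 0.193 without BSA replicate 2, and the cyclin gene Ccnd1 was at 162 and 179 CPM in BSA, 248 and 160 in LA and 193 and 198 in DHA (0.23, interval −0.25 to 0.71). The medians were −0.0121 for 18 ganglion cell genes, −0.0776 for 18 amacrine genes, −0.178 for 10 horizontal cell genes and 0.000651 for 19 bipolar genes. For the horizontal cell genes 2 were above and 8 below BSA, and the median ran from −0.242 without BSA replicate 1 to −0.0625 without BSA replicate 2. Their summed level was 285.8 and 274.3 CPM in BSA, 258.2 and 288.2 in LA and 272.8 and 275.8 in DHA, so the groups overlapped. None of the ganglion, amacrine, horizontal or bipolar cell genes was higher or lower in all 4 libraries. The amacrine factor gene Neurod6 was at 6.41 and 2.27 CPM in BSA, 2.70 and 0.864 in LA and 0.590 and 2.96 in DHA (−1.29, interval −2.54 to −0.03). The difference was −0.37 without BSA replicate 1 and −2.07 without DHA replicate 2. Trpm1, a channel gene of bipolar cells that pigment cells also express, was at 17.1 and 7.55 CPM in BSA, 57.0 and 10.2 in LA and 35.6 and 26.8 in DHA (1.40, interval 0.17 to 2.63). It was 0.54 without LA replicate 1 and 2.09 without BSA replicate 1. Its order of libraries was that of the mean of the pigment list described next, though not of each pigment gene.

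Genes of pigment epithelium and melanin synthesis had the largest median of the 33 lists, 0.796, with 0.875 for LA and 0.699 for DHA. In BSA and in LA, though not in DHA, their mean level differed more between replicates than between media. Of the 16 tested members 12 were above BSA, none was called, and Oca2, a melanosome transporter gene, was higher in all 4 libraries (1.23, SE 0.685). The mean level of the list was 2.98 and 1.42 log2 CPM in the 2 BSA libraries, 3.70 and 2.08 in LA and 3.05 and 3.04 in DHA. Replicate 1 thus exceeded replicate 2 in BSA and in LA, and the DHA libraries were alike. Tyr, the tyrosinase gene, was at 7.44 and 1.25 CPM in BSA, 16.6 and 2.92 in LA and 7.31 and 12.2 in DHA. Pmel, a melanosome matrix gene, was at 18.2 and 2.67 CPM in BSA, 55.8 and 9.34 in LA and 28.5 and 25.7 in DHA. Ttr, the transthyretin gene of pigment epithelium and choroid plexus, was the most uneven, at 177 and 0.114 CPM in BSA, 209 and 0.324 in LA and 28.6 and 36.8 in DHA. The median of the list was 1.49 without BSA replicate 1, 0.366 without BSA replicate 2 and 0.31 without LA replicate 1. Dct and Slc6a15, 2 of its members, passed the threshold when low counts were not filtered (adjusted p of 0.00402 and 0.0283 by edgeR), and so did Trpm1 (4.42e-08).

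Müller glia and mesenchyme lists also had positive medians that rested on single libraries. The 19 Müller glia genes had a median of 0.328, which was −0.052 without BSA replicate 2 and 0.0353 without LA replicate 1. Rlbp1, a retinoid-binding protein gene of these glia, was at 98.8 and 43.9 CPM in BSA, 131 and 90.9 in LA and 75.1 and 86.5 in DHA. Id3, a transcription inhibitor gene on that list, was higher in all 4 libraries, at 15.8 and 14.0 CPM in BSA, 20.4 and 22.8 in LA and 19.0 and 25.3 in DHA (0.56, SE 0.291). The 15 ciliary margin genes had a median of 0.243, which was −0.053 without LA replicate 1, and its gap junction gene Gja1 was at 25.5 and 11.6 CPM in BSA, 56.0 and 14.4 in LA and 43.9 and 34.0 in DHA. The 17 tested mesenchyme genes had a median of 0.411, with 0.902 for LA and 0.0467 for DHA. It was 1.29 without BSA replicate 1 and −0.0397 without BSA replicate 2. The collagen gene Col3a1 was at 10.1 and 2.61 CPM in BSA, 20.7 and 15.5 in LA and 9.43 and 5.16 in DHA. Gja1 and the mesenchymal proteoglycan gene Dcn passed the threshold when low counts were not filtered (adjusted p of 0.00181 and 0.000613 by edgeR).

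**Figure D4:**
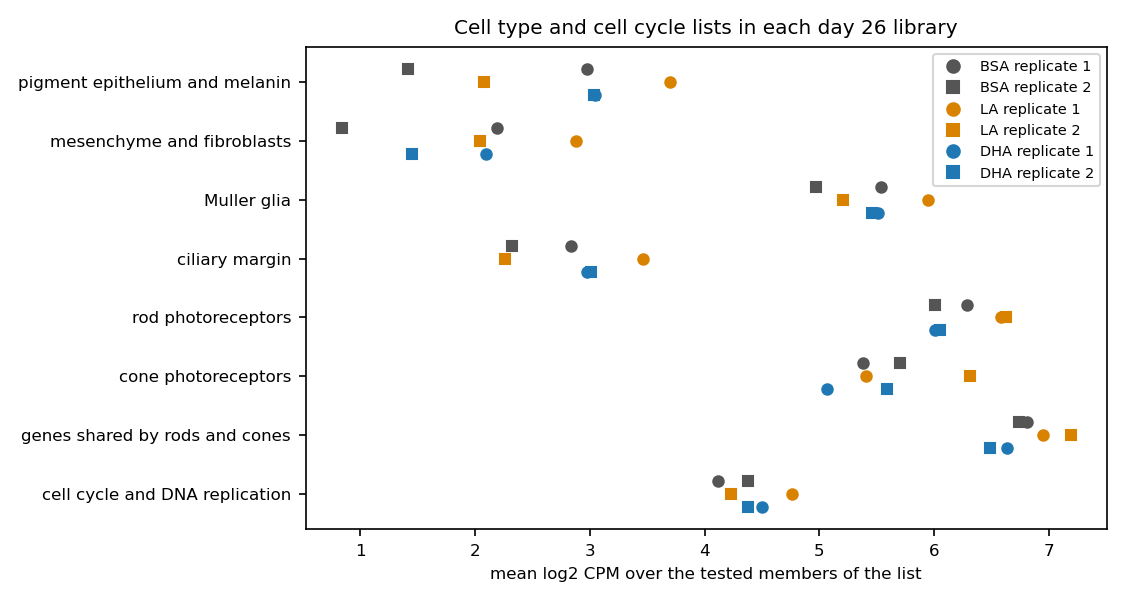
Mean log2 CPM over the tested members of 8 lists in each day 26 library (prior count 2). BSA replicate 2 is the lowest library for the pigment, mesenchyme and Müller glia lists, and the pigment list spans 1.42 to 3.70 while the list shared by both photoreceptor types spans a narrower range.

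Of the other tissues, microglia and pluripotent cells contributed few counts. Summed levels were 24.11 to 27.18 CPM for 7 tested microglia genes and 10.5 to 14.8 CPM for 5 tested pluripotency genes, with overlapping groups. The sums were larger for 7 tested endothelium genes (163.6 to 244 CPM), 11 surface ectoderm genes (75.62 to 131.3) and 5 lens genes (66.14 to 84.37). Brain neural genes outside the retina summed to 23.77 and 25.89 CPM in BSA, 22.43 and 73.89 in LA and 12.68 and 34.19 in DHA. Their median of 0.416 was −0.113 without LA replicate 2. In the muscle list, the smooth muscle genes Myh11 and Tagln were higher in all 4 libraries and the cardiac troponin gene Tnnt2 lower. Myh11 was at 2.36 and 0.511 CPM in BSA, 5.52 and 5.13 in LA and 4.95 and 3.59 in DHA (1.74, interval 0.15 to 3.33). The value was 3.20 without BSA replicate 1 and 1.01 without BSA replicate 2. Tnnt2 was at 1.94 and 1.65 CPM in BSA, 1.62 and 0.378 in LA and 0.413 and 0.174 in DHA (−1.72, interval −3.12 to −0.33). Without the filter on low counts their adjusted p were 0.00522 and 0.000613 by edgeR. The pigment, glial and mesenchymal levels differed between the libraries compared here, and their part in the genes named above was not tested.

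Some genes had the LA and DHA libraries on opposite sides of BSA. LA lay above and DHA below both BSA libraries for 304 genes (1.51%), and DHA above and LA below for 159 (0.791%). Libraries that do not differ also fall in such orders for some genes, and an excess over that was not tested. DHA against LA called 0 of 20111 genes (0%) with edgeR, with 638 (3.17%) at an unadjusted p under 0.05. DESeq2 and limma voom also called 0, with 563 and 579, and edgeR without the filter called 122. The genes named here have the smallest p for DHA against LA within these sets, so these values describe the choice. Ankrd33 (chromosome 15, 101115755 to 101120040), which encodes a photoreceptor nuclear protein, was at 30.3 and 28.3 CPM in BSA, 40.5 and 49.0 in LA and 17.6 and 25.7 in DHA. The log2 difference of DHA minus LA was −1.05 (SE 0.211). Ano2 (chromosome 6, 125690419 to 126040126), a calcium-activated chloride channel gene of photoreceptor terminals, was at 45.2 and 45.9 CPM in BSA, 65.7 and 67.6 in LA and 36.1 and 35.1 in DHA (−0.90, SE 0.186). Its replicates lay within a few CPM of each other in each medium. Nfic, a nuclear factor I gene, was at 41.7 and 48.7 CPM in BSA, 57.3 and 56.2 in LA and 32.0 and 33.4 in DHA (−0.80, SE 0.170).

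The reverse order was led by Lrch1, Gpr45 and Col20a1. Lrch1, a leucine-rich repeat gene, was at 25.3 and 24.2 CPM in BSA, 17.8 and 10.9 in LA and 26.7 and 33.5 in DHA (DHA minus LA 1.07, SE 0.268). Gpr45, an orphan receptor gene, was at 2.42 and 3.07 CPM in BSA, 1.98 and 1.51 in LA and 3.07 and 5.68 in DHA (1.32, SE 0.36). Col20a1, a collagen gene, was at 42.0 and 30.8 CPM in BSA, 25.8 and 27.0 in LA and 45.8 and 45.1 in DHA (0.78, SE 0.213). For each of these 6 genes the averaged difference from BSA was between −0.25 and 0.10. They were picked for having the acids on opposite sides of BSA, which by itself makes this average small. The 304 genes with LA above and DHA below had a median expression of 5.26 log2 CPM, higher than the sets in which both acids lay on one side. Rod list genes in this set were Cngb1, Nrl, Pde6a and Reep6, and Gucy2e, Impg1 and Rbp3 were among the shared photoreceptor genes. Cngb1, the rod channel subunit gene, was at 133 and 109 CPM in BSA, 185 and 188 in LA and 94.6 and 88.8 in DHA (DHA minus LA −1.02, SE 0.29), and Ano2 and Ankrd33 had the same order.

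The same comparison in day 32 libraries gave no called gene with edgeR. The day 32 libraries with FGF1 were in the same fit as those of day 26, so they shared its filter and its estimate of spread, which ranked the named genes, but their fatty acid differences were not used to pick them. From day 26 those organoids also received serum, amino acids and B27 without vitamin A in all media. With FGF1, 4 fatty acid libraries stood against 2 BSA libraries of like depth. edgeR called 0 of 20111 genes (0%), with 327 (1.63%) at an unadjusted p under 0.05 and a smallest adjusted p of 0.885. DESeq2 called 2 genes there, Apobec3 (1.3, adjusted p = 0.0294) and Rfx4 (2.58, adjusted p = 0.0306). Without FGF1, 9 libraries of lower depth were fitted with a term for the libraries kept by the authors in their normalized table, and 0 of 17006 genes (0%) were called, with 172 (1.01%) at an unadjusted p under 0.05. The difference between the day 26 effect and the day 32 effect with FGF1 was called for 0 of 20111 genes (0%), with 255 (1.27%) at an unadjusted p under 0.05.

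The 24 named genes kept their side at day 32 about as often as not. Of the 12 named genes on the higher side, 6 were above BSA at day 32 with FGF1 and 6 without it, 4 of them in both. Of the 12 on the lower side, 6 were below BSA with FGF1 and 6 without, 3 of them in both. Mlc1 kept its sign with FGF1 (0.94) and had −0.19 without. Papss2 had −0.35 and −0.83, Drd1 had −0.17 and 0.02, and Bmp4 had −0.45 and −0.65. Dmxl1, Car10 and Pcdh11x were above BSA at both, at 0.28 and 0.26, 0.26 and 0.16, and 0.18 and 0.06. Tex14, Edem1 and Plxna1 were below BSA at both. Tex14 had −0.56 and −0.46, Edem1 had −0.14 and −0.24, and Plxna1 had −0.22 and −0.55. Of the 589 genes higher at day 26, 53.7% were above BSA at day 32 with FGF1 and 61.2% of those also tested without FGF1, against 50.4% and 50.3% of all genes. Of the 585 lower genes, 48% and 49.3% were above BSA. These shares are over genes, which are not independent replicates, and carry no test. The cell cycle list had medians of 0.0699 and −0.0712 at day 32, the pigment list −0.0954 and −0.196, and the antioxidant list 0.105 and −0.259. The mesenchyme list had medians of 1.07 with FGF1 and −0.318 without, the Müller glia list 0.197 and −0.0485, the ciliary margin list 0.063 and −0.442, and the horizontal cell list −0.0194 and 0.249.

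**Figure D5:**
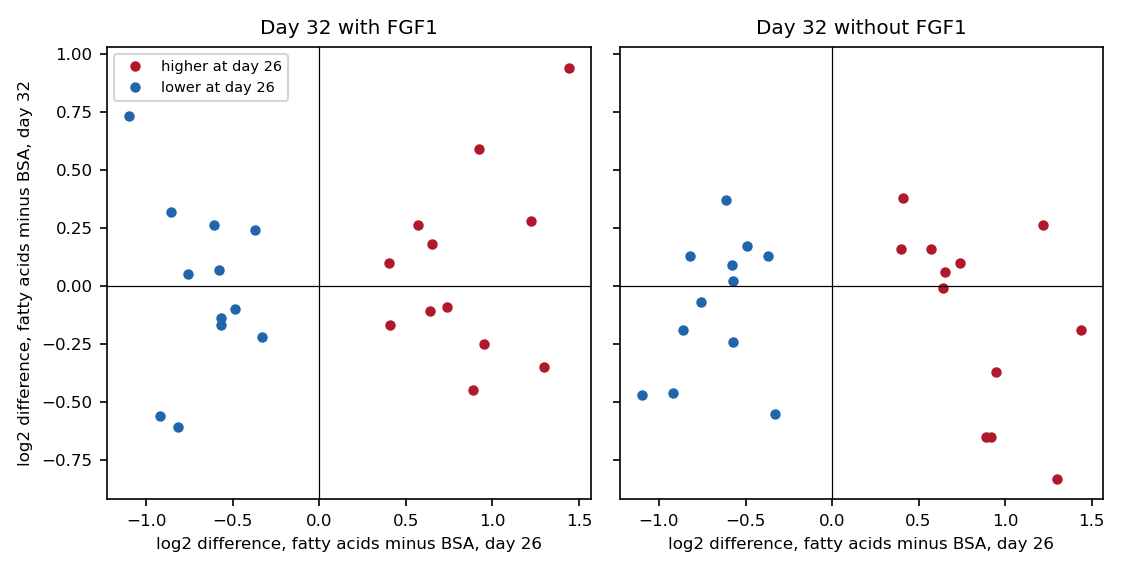
Log2 difference of fatty acids minus BSA at day 32 with FGF1 (left) and without FGF1 (right) against the same difference at day 26, for the 24 named genes. A point whose 2 values have the same sign kept its side, which holds for 6 of 12 higher and 6 of 12 lower genes in each panel.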

How the data were processed

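Directional poly(A) libraries were analysed from gene tables deposited by the authors. The submitters' processing notes name kallisto 0.45.0, Trimmomatic 0.36, edgeR and the build GRCm38.p6. The deposited gene table holds expected counts (estimated counts that need not be whole) for 52143 genes in 23 libraries, and another table, whose values are a signal the authors normalized as CPM, was used only for alternatives. From it the authors left out 5 libraries, none of day 26. Counts were rounded, filtered with filterByExpr (20111 genes), TMM-scaled and fitted with edgeR 4.0.16 QL on 12 libraries of like depth (all 6 of day 26, plus 2 per medium from day 32 with FGF1, in 6 groups with 6 residual degrees of freedom). The contrast was the mean of LA and DHA minus BSA. Genes were called at a Benjamini-Hochberg adjusted p under 0.05. SE and 95% intervals were derived from the F statistic and are approximate. For a symbol with several gene IDs, the ID with most counts was used. The script was tested on simulated data.

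Named genes were called genes, filled up to 12 per direction with the smallest p among those higher or lower in all 4 libraries (mean log2 CPM of at least 1, no predicted-gene name), up to 3 genes per list, 13 fixed lipid and retinal genes, and 3 genes per direction opposite between the acids. A few genes that the rule names are not reported here. Genes quoted beyond these, to show the members of a list, were chosen after their values were seen. The comparison and the 33 lists were chosen with earlier results of these data known. Alternatives used DESeq2 1.42.0, limma 3.58.1 (voom, and trend on the deposited CPM), RLE size factors, no filter, all 23 libraries, the day 26 libraries alone, a replicate block and leaving out each library. R 4.3.3, Python 3.11.15 and matplotlib 3.10.9 were used.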

Additional observations from a re-analysis of the deposited data

How the results depend on the processing

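Calls at day 26 did not depend on the scaling, or on edgeR against limma, with the filter on. DESeq2 was run without this filter and also called 0 genes at day 26. With RLE size factors, DESeq2, limma voom, all 23 libraries, the 6 day 26 libraries alone, the deposited CPM and each library left out, 0 genes were called in the 4 comparisons of day 26. Without the filter, edgeR called 69, 128, 59 and 122 genes for either acid, LA, DHA and DHA against LA, with infinite prior degrees of freedom. Calls without the filter thus depended on the tool. At day 32 with FGF1, DESeq2 called 2 genes. Genes higher and lower in all 4 libraries numbered 898 and 4965 without the filter, of which 569 and 581 were among the 589 and 585. With each library left out they ranged from 1050 to 2691 and from 999 to 2593. A fit with a library left out assumes that the lone library of its group varies like the other groups.

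With the replicate block, 0 genes were called in each comparison of day 26, with 338, 508, 405 and 955 at an unadjusted p under 0.05. Deviations of libraries with the same number correlated at 0.366 between BSA and LA, −0.0601 between BSA and DHA and −0.138 between LA and DHA over 14686 genes, so the numbers were not taken to pair the libraries. A crossed pairing of LA and DHA, added after seeing the data, called 0 genes (1256 unadjusted).

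Of 1912 recomputed values for 137 named genes, 53 in 37 genes changed sign, none of them among the 24 genes higher or lower in all 4 libraries, and 10 passed the threshold, all without the filter. With only the 6 day 26 libraries Nrl and Gpr45 were each at −0.01, and Gpr45 was at −0.02 with limma voom. With a library left out, averaged log2 differences ranged over Abca1 −0.15 to 0.24, Acsl5 −0.76 to 0.29, Adm −0.13 to 1.75, Angptl4 −0.23 to 0.64, Ankrd33 −0.06 to 0.21, Chac1 −0.49 to 0.10, Col20a1 −0.28 to 0.16, Col6a3 −0.04 to 2.90, Crx 0 to 0.12 and Cryba2 −1.80 to 1.41. They ranged over Dlx2 −0.99 to 1.28, Fads2 −0.22 to 0.01, Fgf15 −0.97 to 0.28, Flt1 −0.99 to 0.43, Gpr45 −0.25 to 0.19, Grhl2 −0.90 to 0.15, Guca1a −0.27 to 1.36, Hmgcs1 −0.27 to 0.01 and Hmox1 −0.07 to 0.46. The next ranges were Jund −0.02 to 0.43, Lin28a −0.38 to 0.34, Nefh −0.46 to 0.08, Nfic −0.19 to 0.05, Nrl −0.09 to 0.09, Opn1sw −0.59 to 0.91, Pde6g −0.02 to 0.43, Pde6h −0.25 to 1.3 and Phgdh −0.04 to 0.58. The last were Plin2 −0.04 to 0.33, Pou5f1 −0.25 to 0.12, Prdm1 −0.52 to 0.23, Ptprc −0.43 to 0.09, Rcvrn −0.28 to 0.09, Relb −0.61 to 0.31, Rlbp1 −0.06 to 1.1, Serpina3n −0.13 to 6.87 and Tek −2.76 to 0.40. The 6.87 for Serpina3n is against a BSA library at 0 and depends on the prior count. Of 462 list medians 8 moved by more than the spread between libraries, all with a library left out. With 2 libraries per group, 69.6% of genes had intervals within 1 log2 unit, and genes under about 1 CPM rest on few counts.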
